A study of Mus musculus with 14 samples.

Results

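Whole lungs of mice without CD151 were compared with wild type lungs on expression arrays, using the 5 arrays titled CD151KO and the 4 titled wild type, chosen by their titles, 9 of the 14 arrays of the series. All mice were of strain background C57BL/6 and 20 weeks old, with no treatment named in the labels. Wild type carried numbers 1, 3, 4 and 5, and CD151KO numbers 1 to 5, and signals below are given in that order. The other 5 arrays, of CD9KO lungs, shared in the estimate of the spread, and CD151KO was also tested against them. The labels give the genotype as a knockout, not which part of Cd151 was removed or whether littermates served as wild type, nor the hour at which lungs were taken. Since they also do not state that each sample was a different animal, every p-value reflects the spread among samples, part of which may be technical. The series title names CD151, pulmonary fibrosis and the integrity of the epithelium, and the comparison asks which lung transcripts differ at this age without CD151.

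CD151 is a tetraspanin, a small protein spanning the membrane that gathers other membrane proteins around it. Its closest partners are the integrins that bind laminin, above all the one made of ITGA3 and ITGB1, through which epithelial cells hold to the basement membrane. In the lung that sheet lies between the alveolar epithelium and the capillaries, with elastic fibres and collagens made by fibroblasts on the other side.

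Each array gave a normalized intensity, a linear signal, for 45101 probe sets, and array medians lay between 84.1 and 86.2. The tissue label was borne out by its defining markers: Sftpc, the surfactant gene of alveolar type 2 cells, ranged from 28497 to 28787 in wild type and 28719 to 29212 in CD151KO, and Ager, of type 1 cells, from 22344 to 22961 and 21086 to 23419. Both number 1 arrays stood apart on the first principal component, which held 37.5% of the variance. Their scores were -18.5 (wild type) and -17.2 (CD151KO) against -8.01 to 13.4 on the other 12, and counts are also given without them. Scores rose with the array number, over -18.5, -4.97, 0.81 and 1.48 in wild type and -17.2, -8.01, -4.80, 1.11 and 2.46 in CD151KO. CD9KO arrays gave 7.23 to 13.4. No label names a litter, batch or day behind the numbers. BioB, a control RNA added at hybridisation, read 314 to 354 in wild type, 363 to 424 in CD151KO and 361 to 444 in CD9KO. Wild type lay below both knockouts without overlap (CD151KO against wild type, exact two-sided permutation p = 0.016, the smallest 4 against 5 arrays can give, adjusted p = 0.032 over 2 array measures). Whether BioB bears on the results, including those where both knockouts differed from wild type, was not tested. Gapdh probe sets at the 3' end over those at the 5' end, a sign of RNA quality, gave 0.836 to 0.863 in wild type and 0.853 to 0.886 in CD151KO (exact permutation p = 0.079, adjusted p = 0.079).

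In lungs without CD151 few genes passed the test, and most of those changed by small amounts. Of 12985 genes tested, 101 (0.778%) passed at a limma adjusted p under 0.05, 59 (0.454%) higher and 42 (0.323%) lower, and the median log2 difference of all genes was 0.0079. Differences are CD151KO minus wild type on the log2(signal + 16) scale, which understates changes of weak genes, and folds are on that scale. Most of the 101 changes were small: 51 were under 1.25-fold, 36 between 1.25 and 1.5-fold, and 14 (0.108% of genes tested) at least 1.5-fold. Those 14 were Cd151, Tspan4, Gm33248 and Ccbe1, the clock genes Dbp, Hlf, Ciart, Per3 and Arntl, and Rbp7, Spon2, Stk32c, Mfap5 and Nrcam. In 100 of the 101 the arrays of both groups did not overlap, as in 589 (4.54%) of all genes tested (2.84% higher and 1.69% lower), and the exception was Abca5. Without wild type number 4 only 24 genes passed, without CD151KO number 5 only 31, without wild type number 5 41, and with the number 1 arrays of both groups removed 45, the last a choice made after seeing the data. A fit on the 9 arrays of both groups alone passed 39, and 21 of the 101 passed without each of the 14 arrays in turn. The brightest probe set stands for each gene; with the mean of a gene's probe sets 82 genes passed, 59 of them among the 101. Calls that ended with that mean were those of Abca5, Adam17, Akap2, Ankrd12, Atat1, Chn1, Col5a2, Cracr2b, Crim1, Eif4g3, Eif5a2, Esrp2, Fkbp11, Fndc4, Lipe, Liph, Ltbp3, Mcm5, Mettl7a1, Nr1d2, Pag1, Pctp, Pdxk, Pdzrn3, Pfkl, Phlpp2, Prkci, Rbm47, Rbms3, Rbp7, S100g, Scara5, Spon2, St6galnac3, Tmed8, Tmem204 and Trim24, and of 3 genes taken up below. Of these, Cracr2b, Rbp7 and S100g have 1 probe set each and kept their log2 differences (-0.25, 1.11 and 0.32), in a fit that tested 12146 genes. In Akap2, Col5a2, Crim1, Liph and Nr1d2 every probe set differed in the same direction without overlap. Beside a list's median, its value is given without each array whose removal moved it over 1.5 times or changed its sign. For medians nearer 0 than 0.05, the lowest and highest such values are given. Each list count below is to be set beside the share over all genes tested. Past the threshold that share was 0.454% higher and 0.323% lower, and at an unadjusted p under 0.05 it was 6.72% higher and 4.42% lower. Of all differences 54.0% were positive. Members of a list can move together on the same arrays, so a count of their signs is no test.

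**Figure D1:**
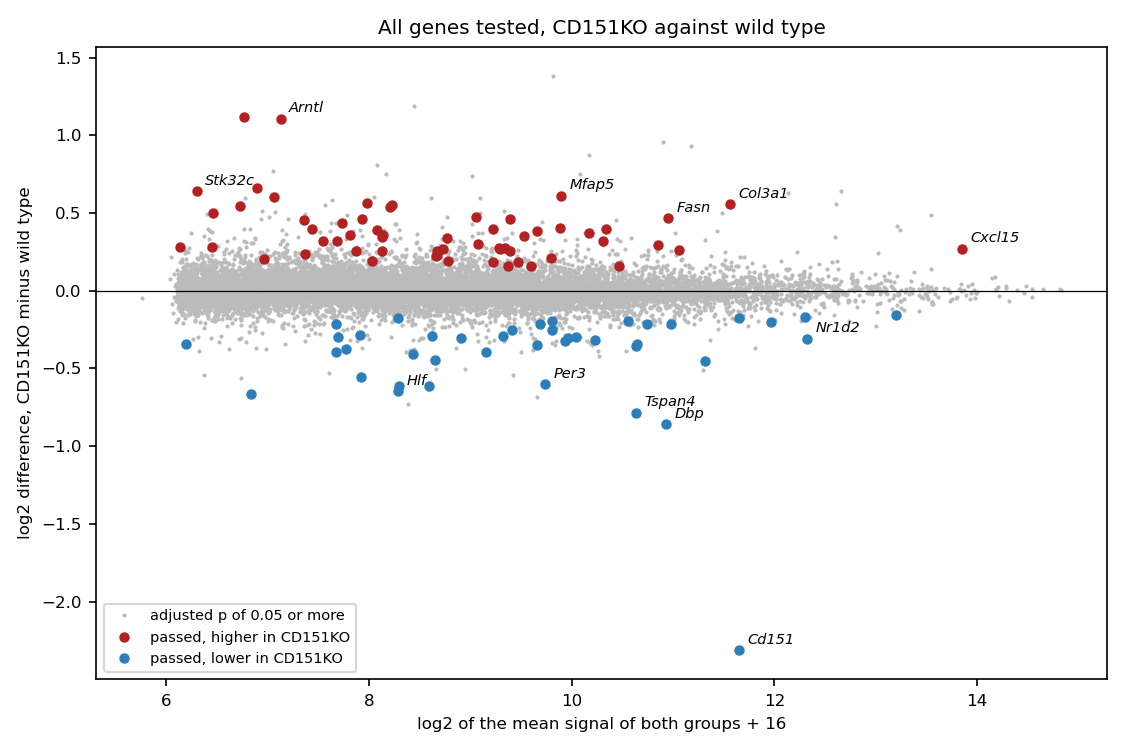
Each point is 1 of 12985 genes. The horizontal axis is the log2 of the mean signal of both groups plus 16 and the vertical axis the log2 difference, CD151KO minus wild type; red points passed higher (59), blue points passed lower (42), and Cd151 lies lowest at -2.31.

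Cd151 itself checks the labels. Its signal was 5832, 5115, 4991 and 5379.6 in wild type and 1065, 1072, 1027, 1064 and 1061 in CD151KO. Every CD151KO array lay far below every wild type array, a difference of 4.97-fold (log2 -2.31, SE 0.041, adjusted p = 8.8e-15). In CD9KO it was 4867 to 5215. Of its 6 probe sets the 4 brightest differed by -2.26 to -2.41 in log2, and the other two, with wild type means of 136 and 55.5, by -0.071 and -0.16. A signal of 1027 to 1072 remained in all 5 knockout arrays, and the labels do not say whether the probes lie in the removed part.

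Among the 26 tetraspanin genes tested, Cd151 included, 2 fell and 0 rose, against 0.323% of all genes lower. Cd151 was 1 of the 2, a fall set by the knockout. With Cd151 left out the median log2 difference was 0.020, or 0.010 without CD151KO number 2 and 0.030 without CD151KO number 1. The other that fell was Tspan4, a tetraspanin found in migrasomes, the vesicles that moving cells leave behind. Tspan4 also comes next to Cd151 in the order of chromosome 7 used below, so its fall is not read as one of the family. Tspan4 read 2001, 1865, 2041 and 2074 in wild type and 932, 1349.8, 1183, 1219 and 1111 in CD151KO. The groups did not overlap, and the fall was 1.72-fold (log2 -0.78, SE 0.079, adjusted p = 2.6e-04). Cd9, the tetraspanin removed in the other knockout, read 7998 to 8163 and 7861 to 8501 (log2 0.023, adjusted p = 0.91). Cd81 and Cd82, both partners in tetraspanin complexes, differed by 0.061 and -0.029 in log2 (adjusted p = 0.48 and 0.89); these 3 genes were chosen after their values were seen. Tspan11 had a log2 difference of 0.34 (adjusted p = 0.078) and Upk1b, a tetraspanin of surface epithelia, of 0.28 (adjusted p = 0.35).

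None of the transcripts of the binding partners passed. For laminin-binding integrins and hemidesmosome genes 0 of 7 passed by limma, 4 were higher and 0 lower at an unadjusted p under 0.05, and the median was 0.11; over all genes 11.1% had such a p, 6.72% higher and 4.42% lower. Itga3, the main integrin partner, read 627, 636, 618 and 650.3 in wild type and 686, 747, 641, 699 and 652 in CD151KO, with overlapping groups (log2 0.11, SE 0.050, adjusted p = 0.42). Itga6, which pairs with ITGB1 or ITGB4, ranged from 2257 to 2811 in wild type and 2358 to 3425 in CD151KO (log2 0.23, adjusted p = 0.34), Itgb4 from 117 to 145 and 138 to 161 (log2 0.18, adjusted p = 0.33), and Itga7, the muscle laminin receptor, differed by 0.28 (adjusted p = 0.13). All 7 differences were positive, against 54.0% over all genes. Among other partners and linkers of tetraspanins 0 of 9 passed by limma, 1 higher and 0 lower at an unadjusted p under 0.05, with a median of 0.0066, or -0.010 without wild type number 1 and 0.041 without wild type number 4; Mmp14, the membrane collagenase, differed by 0.22 and Ezr, which ties membranes to actin, by 0.089 (adjusted p = 0.26 and 0.47).

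A pair of genes near Cd151 on chromosome 7 were among those that fell. Places in chromosome order are counted here over genes with a probe set of 1 symbol, so genes without one are left out. In that order Tspan4 comes next, and Cracr2b, a regulator of store-operated calcium entry, lies 2 places to the other side. Cracr2b read 1117, 947, 890.0 and 897 in wild type and 797, 836, 787, 815 and 773 in CD151KO. All knockout arrays lay below all wild type arrays (log2 -0.25, SE 0.055, adjusted p = 0.047), and Cracr2b passed without wild type number 1 and missed the threshold without each of the other 13 arrays (adjusted p = 0.057 to 0.11). Of the 20 genes within 10 places of Cd151 on either side, 16 were tested, and 2 passed, both lower, against 0.323% of all genes; Gm10575, Gm16982, Muc2 and Brsk2 were below the level filter. The 14 that did not pass differed by -0.11 (Tollip, an adaptor of innate signalling) to 0.17 (Muc5b, an airway mucin). Within 5 Mb of Cd151, 101 genes were tested and 4 passed (3.96%, against 0.778% of all genes). Stk32c and Lrrc27 were higher and Cracr2b and Tspan4 lower. Without Stk32c, which entered the test only through its CD151KO arrays, 3 of 100 passed. Within 20 Mb, 7 of 246 passed (2.85%), or 6 of 245 (2.45%) without Stk32c. The wider window added Scnn1b, which was higher, and Sec23ip and Gm33248, which were lower, Sec23ip by its brighter probe set only. All of these counts leave out Cd151 itself.

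Both genes that rose near Cd151 had low signals. Stk32c, a serine/threonine kinase, read 51.2, 38.3, 48.1 and 45.9 in wild type and 94.7, 87.1, 72.7, 70.9 and 76.8 in CD151KO. It was higher on every knockout array (1.56-fold, log2 0.64, SE 0.093, adjusted p = 0.0053), but its wild type and CD9KO means of 45.9 and 47.4 lie under the level filter at a signal of 53.4, so a gene like it could be tested only if it was high in CD151KO, and its call supports nothing. Lrrc27, a leucine-rich repeat protein of little known role, read 55.8, 62.9, 60.5 and 49.4 in wild type and 86.6, 76.2, 82.96, 96.7 and 95.5 in CD151KO, again without overlap (1.42-fold, log2 0.50, SE 0.073, adjusted p = 0.0053). Gm33248, a gene model with no described role, read 97.1, 135, 126 and 139.6 in wild type, while the CD151KO arrays gave 80.3, 71.8, 76.3, 68.3 and 63.3, all lower (1.59-fold, log2 -0.67, SE 0.088, adjusted p = 0.0048). Tspan4, Lrrc27 and Gm33248 each passed without each of the 14 arrays in turn, and each also differed between CD151KO and CD9KO (limma adjusted p = 1.6e-04, 0.0014 and 0.019). Stk32c passed the same fits (adjusted p = 0.0015 against CD9KO), but these carry the same selection by the filter and support nothing either. Sec23ip, which binds a coat protein of vesicles leaving the endoplasmic reticulum, had probe sets that disagreed: the brighter fell from a mean of 868 to 746 (log2 -0.21), and the other rose from 315 to 470.2 (log2 0.55), both without overlap.

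**Figure D2:**
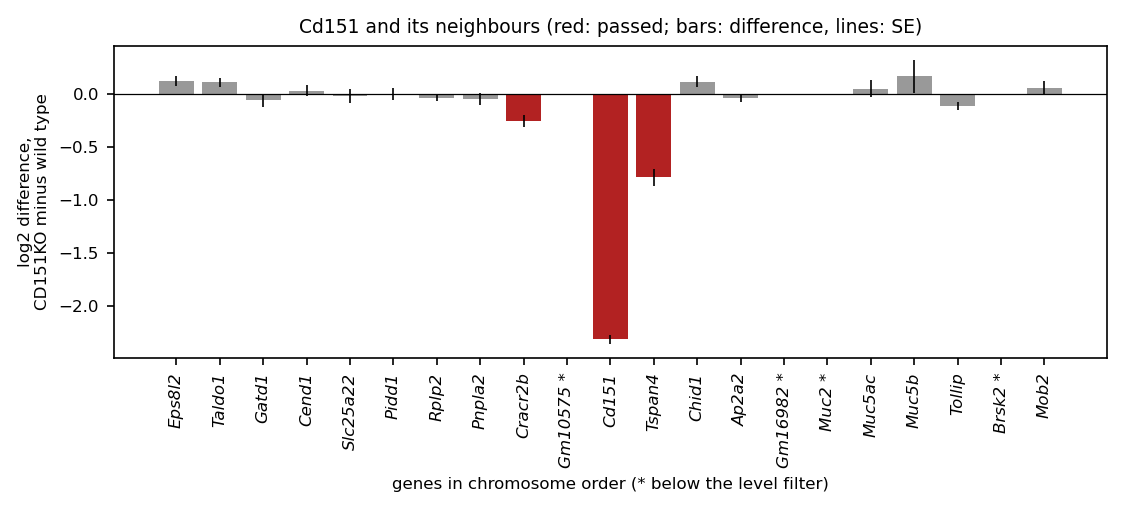
Bars give the log2 difference, CD151KO minus wild type, with the standard error as a line. Shown are Cd151 and, in chromosome order, the 10 genes on either side that have a probe set of 1 symbol. Red bars passed, and a star marks a gene below the level filter. Cd151, Tspan4 and Cracr2b are the red bars, at -2.31, -0.78 and -0.25, and the other tested neighbours lie between -0.11 and 0.17.

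In the circadian clock 2 of 3 activators rose, while 3 of 8 repressors and 3 of 6 output factors fell. Over all genes tested, 0.454% rose and 0.323% fell. At an unadjusted p under 0.05, 2 activators were higher and 1 lower. The repressors gave 0 and 6 in that order, and the output factors 1 and 3. In the clock loop ARNTL and CLOCK bind E-box sequences and switch on the Per, Cry and Nr1d genes. PER and CRY proteins then block that pair, and NR1D proteins repress Arntl at RORE sites. DBP, TEF and HLF, themselves driven by the clock, bind D-box sequences and pass the rhythm on. In the lung the clock runs in epithelial cells as well as fibroblasts. The labels do not give the hour at which lungs were taken, so in these genes a difference in hour between groups cannot be told apart from genotype. In whole tissue, fewer cells of a type and less RNA per cell cannot be told apart, here and below.

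The 9 clock genes that passed had 13 promoters in RefSeq tables (GRCm38.p6), each from 250 bases before to 50 after a listed start. They were searched on both strands for CACGTG (E-box), TTANGTAA (D-box) and TAGGTCA (RORE). Among all 27025 genes in the table, counting every listed start as for these 9, 8.09% held an E-box, 2.72% a D-box and 2.97% a RORE. Of the 9 genes, Tef and Ciart held an E-box, Per3 a D-box and Arntl a RORE, and the other 5 held none of these letters in that window; no gene held more than 1 kind of motif, so no matches of different motifs overlapped. For each gene the first stretch that holds a match is shown 5′ to 3′ on the gene's strand, with the matches in capitals; a match is a description, not a site. Per3 (chr4:151044666-151044915, minus strand; D-boxes 205 and 158 bases before the start) and Tef (chr15:81802423-81802672, plus strand; an E-box 127 bases before the first of 2 starts; the window of the second start, not shown, holds another 138 bases before it) are given as the 250 bases before the start. Ciart (chr3:95882229-95882478, minus strand) has E-boxes 116, 58 and 44 bases before its start, and Arntl (chr7:113207531-113207560, plus strand) a RORE 31 bases after the second listed start, shown in 30 bases. 
Per3: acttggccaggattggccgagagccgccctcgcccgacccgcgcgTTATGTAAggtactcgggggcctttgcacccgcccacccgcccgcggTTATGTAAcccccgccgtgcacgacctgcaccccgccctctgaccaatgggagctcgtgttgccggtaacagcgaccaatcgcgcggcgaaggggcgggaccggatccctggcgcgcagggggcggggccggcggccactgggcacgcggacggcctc
Arntl: aggcagaaagTAGGTCAgggacggaggtgc
Tef: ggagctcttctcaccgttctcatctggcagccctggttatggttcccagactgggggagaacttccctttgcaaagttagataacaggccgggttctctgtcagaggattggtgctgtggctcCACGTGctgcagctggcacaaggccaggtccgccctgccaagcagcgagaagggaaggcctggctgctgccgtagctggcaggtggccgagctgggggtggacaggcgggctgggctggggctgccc
Ciart: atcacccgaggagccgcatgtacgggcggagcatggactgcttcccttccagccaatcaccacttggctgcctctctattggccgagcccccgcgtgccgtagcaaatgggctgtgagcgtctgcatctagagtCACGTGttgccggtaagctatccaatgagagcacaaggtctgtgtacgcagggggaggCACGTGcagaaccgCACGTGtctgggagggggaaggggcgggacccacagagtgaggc

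Of 3 clock activators tested, 2 rose and 0 fell. Arntl codes for the activator without which the clock stops. It read 62.3, 72.6, 78.9 and 71.1 in wild type, 244, 209, 113, 137 and 185 in CD151KO and 70.8, 82.1, 73.5, 62.3 and 73.2 in CD9KO. All 5 CD151KO arrays lay above all others, at very unequal heights, and the rise was 2.15-fold (log2 1.11, SE 0.16, adjusted p = 0.0048; against CD9KO adjusted p = 0.0011). Its second, dimmer probe set moved the same way but overlapped (means 58.8 and 69.8). Clock, the partner of ARNTL, read 305, 476, 501 and 457 in wild type and 579, 613, 579, 609 and 615 in CD151KO. Those groups did not overlap, with wild type number 1 far below the other wild type arrays (1.39-fold, log2 0.47, SE 0.10, adjusted p = 0.046). Clock passed without wild type number 1 and missed the threshold without each of the other 13 arrays (adjusted p = 0.054 to 0.097). Rora, which activates Arntl through the RORE, had a log2 difference of -0.17 (adjusted p = 0.36); Npas2 and Rorb were below the level filter.

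Of 8 repressors tested, 3 fell and 0 rose, with a median log2 difference of -0.47 and all 8 below 0 (over all genes 54.0% were above 0). Per3, a member of the period family, read 1194, 872, 992 and 1016 in wild type and 582, 635, 697, 713 and 686 in CD151KO. The groups did not overlap, and the fall was 1.52-fold (log2 -0.60, SE 0.084, adjusted p = 0.0048). Ciart, a repressor that binds the ARNTL and CLOCK pair, read 469, 430.2, 447 and 448 in wild type and 199, 257, 321, 360.0 and 330.1 in CD151KO. Here wild type was tight and the knockout spread widely below it (1.53-fold, log2 -0.61, SE 0.12, adjusted p = 0.030). Nr1d2, the second REV-ERB receptor, read 5581, 5562, 5602 and 5773 in wild type, 4095, 4072, 4563, 5149 and 4929 in CD151KO and 5996, 5723, 5981, 5852 and 6046 in CD9KO. Every CD151KO array was lower than every other array (log2 -0.31, SE 0.058, adjusted p = 0.025; against CD9KO adjusted p = 0.0015). Per3 passed without each of the 14 arrays in turn. Ciart missed the threshold without wild type numbers 1, 3, 4 or 5 or CD151KO numbers 2 or 5 (adjusted p = 0.0505 to 0.098). Nr1d2 missed the threshold without wild type numbers 3, 4 or 5 or CD151KO number 3 (adjusted p = 0.053 to 0.077).

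The other 5 repressors did not pass. Per1, the period gene that also answers to glucocorticoids, read 1473, 1249, 1402 and 1242 in wild type and 933, 988, 1090.4, 1166 and 1157 in CD151KO, with no overlap (log2 -0.33, SE 0.074, adjusted p = 0.057). Cry1 read 277, 312, 509.6 and 518 in wild type and 149, 298, 199, 279 and 252 in CD151KO, and Per2 669, 833, 1199 and 1206 in wild type and 307, 657, 624, 737 and 723 in CD151KO. In both, wild type numbers 1 and 3 were low and numbers 4 and 5 high, the groups overlapped, and the log2 differences of -0.73 and -0.68 had adjusted p of 0.12 and 0.21. Cry2 differed by -0.19 (adjusted p = 0.59) and Nr1d1, the other REV-ERB receptor, by -0.0087 (adjusted p = 0.99). In Per2 and Cry1 the number 1 arrays, which stood apart over all genes, gave the lowest value of each group.

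Of 6 clock output transcription factors 3 fell and 0 rose (median -0.28), and the 3 that fell are the whole PAR bZIP family. Dbp, its best known member, read 3636, 2486, 2001 and 1997 in wild type and 1435, 1123, 1351, 1551 and 1311 in CD151KO. The groups did not overlap, though wild type number 1 was well above the rest (1.81-fold, log2 -0.86, SE 0.16, adjusted p = 0.024). Tef read 3028, 2721, 2975 and 2936 in wild type and 1776, 2012, 2155, 2374 and 2372 in CD151KO, with all knockout arrays lower (1.37-fold, log2 -0.45, SE 0.068, adjusted p = 0.0062). Hlf read 418, 318, 380.1 and 346 in wild type and 193, 245, 234, 253 and 213 in CD151KO, again without overlap (1.56-fold, log2 -0.64, SE 0.090, adjusted p = 0.0048). Nfil3, which binds the same D-box and opposes that family, had a log2 difference of 0.39 with overlapping groups (adjusted p = 0.21), and Bhlhe40 and Bhlhe41, which compete at E-boxes, of -0.12 and -0.024 (adjusted p = 0.66 and 0.90). Dbp missed the threshold without wild type number 3 or CD151KO number 5 (adjusted p = 0.053 to 0.057), while Tef and Hlf passed without each array in turn; with only the 9 arrays of both groups in the fit Tef missed the threshold (adjusted p = 0.053). Against CD9KO the 3 had adjusted p of 0.047, 9.2e-04 and 0.0018.

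Further down, 1 of 8 clock-controlled outputs fell and 0 rose, with a median of -0.10, or -0.22 without wild type number 1 and -0.060 to -0.052 without wild type numbers 5 or 4 or CD151KO number 1. The one that fell was Usp2, a deubiquitinase with strong daily rhythm, at 515, 397, 447 and 436 in wild type, 282, 303, 340.0, 359.9 and 337 in CD151KO and 494, 482, 514, 516 and 496 in CD9KO. All CD151KO arrays lay below all others (1.36-fold, log2 -0.45, SE 0.072, adjusted p = 0.011; against CD9KO adjusted p = 2.9e-04), and it passed without each array in turn but not with the 9 arrays of both groups alone (adjusted p = 0.062). Wee1, a kinase that holds back mitosis, differed by -0.40 and Cdkn1a, the cell cycle inhibitor p21, by 0.75 (adjusted p = 0.24 and 0.28). The glucocorticoid response list, which shares Per1 and Cdkn1a, had 0 of 15 genes passing by limma, 1 higher and 1 lower at an unadjusted p under 0.05.

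**Figure D3:**
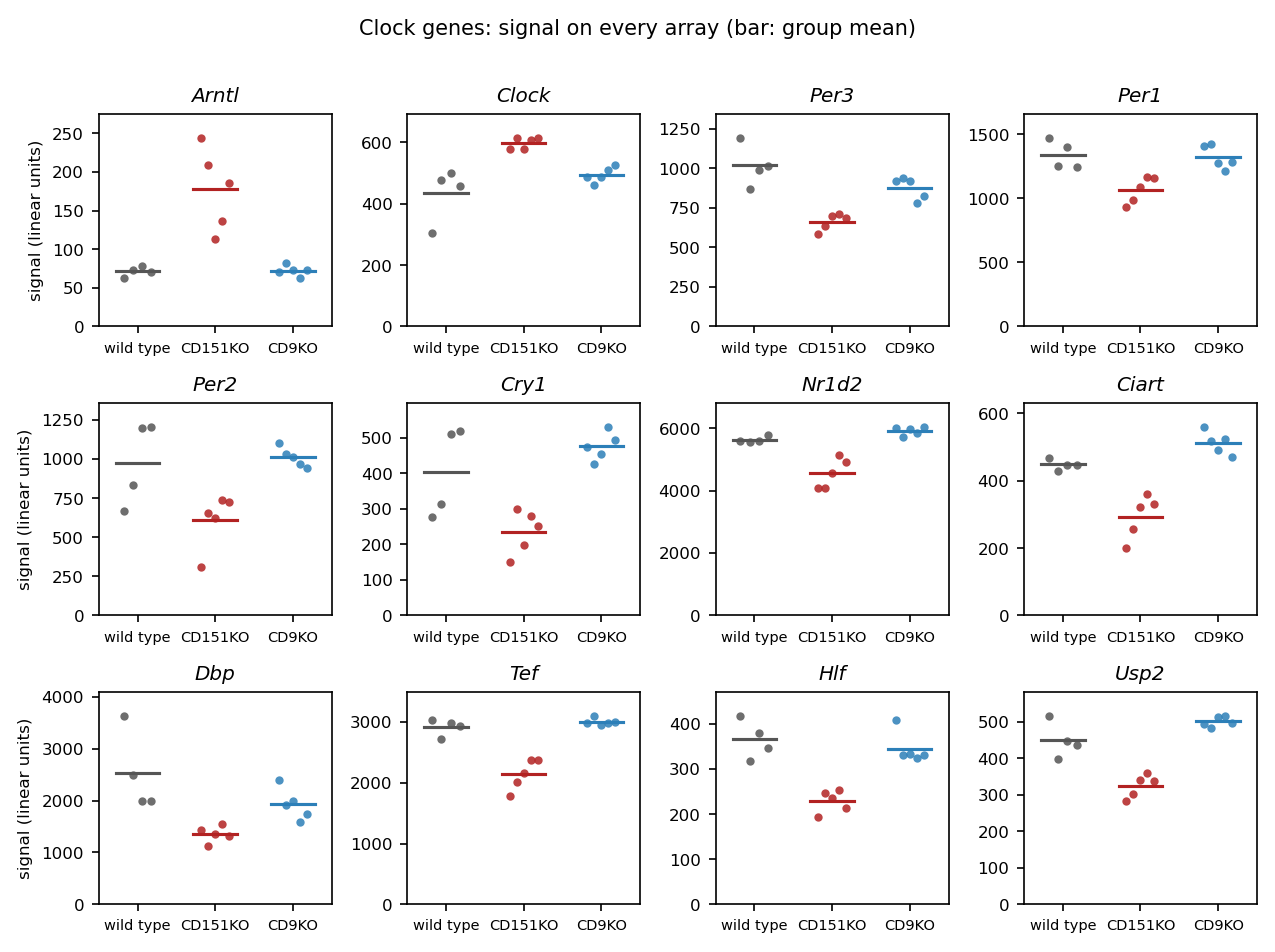
Signal in linear units of 12 clock genes on every wild type, CD151KO and CD9KO array, with the group mean as a bar. Arntl and Clock are higher on all CD151KO arrays than on all wild type arrays, and Per3, Per1, Nr1d2, Ciart, Dbp, Tef, Hlf and Usp2 are lower, while Per2 and Cry1 overlap.

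Several genes of elastic fibres and fibrillar collagens rose. Elastic fibres, which let the lung recoil, consist of an elastin core on a scaffold of fibrillin microfibrils and are joined by lysyl oxidases. Of 17 such genes tested 3 rose and 0 fell (over all genes 0.454% rose and 0.323% fell), with a median log2 difference of 0.11. Mfap5, a protein of the microfibril, read 829.7, 695, 713 and 719 in wild type, 1117, 1155, 1163, 1090.0 and 1156 in CD151KO and 611, 538, 620.2, 636 and 526 in CD9KO. The 3 groups did not overlap, with CD151KO at the top and CD9KO at the bottom (1.53-fold, log2 0.61, SE 0.062, adjusted p = 2.6e-04; CD151KO against CD9KO adjusted p = 3.3e-07). Eln, elastin itself, read 179.9, 166, 184 and 224 in wild type, 266, 228, 285, 302 and 353 in CD151KO and 278, 279.9, 314, 373 and 288 in CD9KO. Both knockouts lay above wild type (CD151KO 1.48-fold, log2 0.56, SE 0.11, adjusted p = 0.030), and the test between them gave an adjusted p of 0.60. Ltbp3, which binds latent TGF-beta to the microfibril, read 1868, 1858, 1947 and 2019 in wild type and 2268, 2337, 2245, 2454 and 2239 in CD151KO, without overlap (1.20-fold, log2 0.26, SE 0.047, adjusted p = 0.020). Mfap5 passed without each of the 14 arrays in turn. Eln missed the threshold without wild type numbers 1, 3 or 4 or CD151KO numbers 3, 4 or 5 (adjusted p = 0.068 to 0.11). Ltbp3 missed the threshold without wild type numbers 3 or 4 (adjusted p = 0.053 to 0.061). Among those that did not pass, the cross-linking enzymes Lox and Loxl1 differed by 0.51 and 0.50 (adjusted p = 0.078 and 0.10), and Loxl1 ranged from 349 to 557 in wild type and 528 to 744 in CD151KO.

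Of 6 fibrillar collagen genes 2 rose and 0 fell (median 0.27), against 0.454% of all genes higher. Col3a1, the type III collagen of soft tissue, read 2753, 2577, 2021 and 2387 in wild type and 3579, 3333, 3544, 3360.5 and 4044 in CD151KO. The knockout arrays were all higher (1.47-fold, log2 0.56, SE 0.11, adjusted p = 0.030). Col5a2, a minor collagen that sets fibril width, read 715, 724, 632 and 664 in wild type and 851, 922, 872, 848 and 989.6 in CD151KO, also without overlap (1.30-fold, log2 0.38, SE 0.069, adjusted p = 0.021). Col3a1 missed the threshold without wild type numbers 3, 4 or 5 or CD151KO numbers 1, 3, 4 or 5 (adjusted p = 0.053 to 0.11). Col5a2 missed the threshold without wild type numbers 4 or 5 or CD151KO number 5 (adjusted p = 0.052 to 0.080). Col1a1 read 182, 165, 137 and 135 in wild type and 213, 201, 201, 198 and 214 in CD151KO (log2 0.38, adjusted p = 0.11), and Col1a2, the other chain of type I collagen, had overlapping groups (log2 0.14, adjusted p = 0.57). None of the 10 non-fibrillar interstitial collagens passed by limma (2 higher and 0 lower at an unadjusted p under 0.05, median 0.094), nor any of 14 collagen processing enzymes and chaperones (3 higher, 0 lower, median 0.070, or 0.040 without wild type number 1). The smallest p among them were those of Col8a2 (log2 0.22, adjusted p = 0.16) and of the lysyl hydroxylase Plod3 (log2 0.16, adjusted p = 0.14).

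In the basement membrane, to which CD151 complexes attach cells, 0 of 21 genes passed by limma, with 5 higher and 0 lower at an unadjusted p under 0.05 and a median of 0.083. The type IV collagen chains Col4a1 and Col4a2 differed by 0.19 and 0.14 (adjusted p = 0.078 and 0.072) and the laminin chain Lama5 by 0.13 (adjusted p = 0.22). Of 19 matricellular and adhesive glycoproteins 1 rose and 0 fell (median 0.040, or 0.030 without wild type number 3 and 0.063 without wild type number 1). The one that rose, Spon2, a secreted matrix protein that also binds bacteria, read 86.8, 78.6, 65.6 and 73.00 in wild type and 181, 101, 121, 113 and 139 in CD151KO. CD151KO number 1 was highest, and the groups did not overlap (1.58-fold, log2 0.66, SE 0.12, adjusted p = 0.020). Spon2 missed the threshold without wild type numbers 4 or 5 or CD151KO number 5 (adjusted p = 0.052 to 0.075). Ccn2 and Tnc, both markers of active repair, differed by -0.37 and 0.46 (adjusted p = 0.17 and 0.28).

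Of 23 matrix proteases and inhibitors 1 rose and 0 fell (0.454% and 0.323% over all genes), with 9 higher and 1 lower at an unadjusted p under 0.05 (6.72% and 4.42% over all genes) and a median of 0.16. The one was Adam17, the sheddase that frees TNF and EGF receptor ligands, at 621, 599.7, 621 and 594 in wild type and 675, 688, 685, 666 and 696 in CD151KO, a small difference without overlap (1.12-fold, log2 0.16, SE 0.031, adjusted p = 0.030). Adam17 passed without wild type number 1 or CD9KO numbers 1, 2, 3, 4 or 5 and missed the threshold without each of the other 8 arrays (adjusted p = 0.0501 to 0.10). Mmp2, a gelatinase, differed by 0.35 (adjusted p = 0.092). Htra3, a serine protease that binds TGF-beta ligands and lay outside these lists, read 191, 188, 197 and 183 in wild type and 242, 245, 289, 269 and 293 in CD151KO. It was higher on all knockout arrays (1.38-fold, log2 0.46, SE 0.067, adjusted p = 0.0053) and passed without each of the 14 arrays in turn. That holds for its brightest probe set alone: with the mean of all its probe sets the log2 difference was 0.11 (adjusted p = 0.35), and its other 2 probe sets overlapped, at -0.096 and -0.046. Of 16 TGF-beta ligands, receptors and activators 0 passed by limma, 2 higher and 2 lower at an unadjusted p under 0.05 (median 0.011, or -0.0078 without wild type number 1 and 0.032 without wild type number 4). Itgb6, the epithelial integrin chain that activates latent TGF-beta, read 193, 223, 133 and 126 in wild type, 261, 309, 207, 215 and 208 in CD151KO and 105, 118, 114, 113 and 95.3 in CD9KO. Wild type and CD151KO overlapped (log2 0.49, adjusted p = 0.18), and CD151KO stood above CD9KO (adjusted p = 0.0011).

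**Figure D4:**
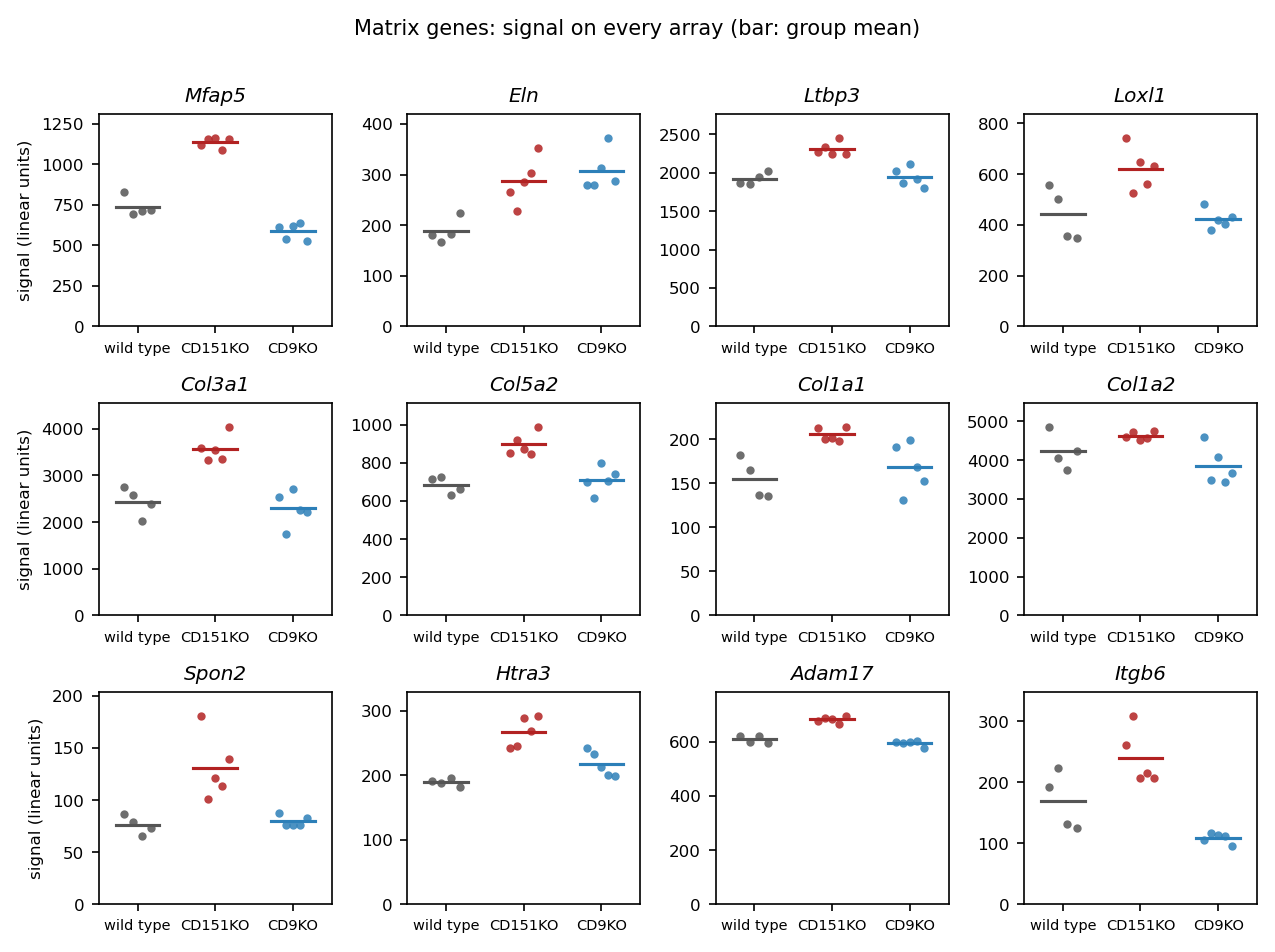
Signal in linear units of 12 matrix genes on every array, with the group mean as a bar. Mfap5, Eln, Ltbp3, Col3a1, Col5a2, Col1a1, Spon2, Htra3 and Adam17 are higher on all CD151KO arrays than on all wild type arrays, Eln is also above wild type on all CD9KO arrays, and Loxl1, Col1a2 and Itgb6 overlap.

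Type 2 cells make the fatty acids of surfactant. In whole lung 1 enzyme of fatty acid synthesis rose, and in which cells it rose was not tested. Adipocyte markers are given further below. Fasn, fatty acid synthase, read 1599.9, 1847, 1599.9 and 1562 in wild type and 2322, 2525, 2064, 2265 and 2261 in CD151KO. The knockout arrays were all higher (1.38-fold, log2 0.47, SE 0.063, adjusted p = 0.0048; against CD9KO adjusted p = 0.0074), and Fasn passed without each array in turn. It was the only one of 20 fatty acid synthesis genes to pass, with 7 higher and 0 lower at an unadjusted p under 0.05 and a median of 0.10, or 0.062 without wild type number 4. Its neighbours in the pathway did not overlap between groups but missed the threshold. Acly, which makes cytosolic acetyl-CoA, read 2907, 2711, 2522 and 2659.6 in wild type and 3277, 3242, 2958, 3075 and 2967 in CD151KO (adjusted p = 0.098), and Scd1, a desaturase, ranged over 8207 to 11367 and 12004 to 16919 (adjusted p = 0.057). Aacs, which turns ketone bodies into acetoacetyl-CoA for lipid synthesis, rose 1.28-fold (log2 0.36, SE 0.070, adjusted p = 0.029). For cholesterol synthesis and uptake 0 of 17 genes passed by limma, 6 higher and 0 lower at an unadjusted p under 0.05. All 17 differences were positive (54.0% over all genes), and the median was 0.10, or 0.054 without wild type number 5 and 0.17 without wild type number 3. Aacs also depended on single arrays: Aacs missed the threshold without wild type numbers 1, 4 or 5 or CD151KO numbers 2, 4 or 5 (adjusted p = 0.054 to 0.10).

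The next genes are described singly, because they passed. Pafah2, which hydrolyses platelet-activating factor and oxidised phospholipids, read 588, 591, 529 and 584 in wild type and 677, 706, 670.2, 692 and 742 in CD151KO, without overlap (1.21-fold, log2 0.28, SE 0.045, adjusted p = 0.011), and passed without each array in turn. Lipe, hormone-sensitive lipase, rose 1.37-fold (adjusted p = 0.030), and ranged over 151 to 205 there and 162 to 221 in CD9KO (adjusted p = 0.57 between the knockouts). Pctp, a carrier of phosphatidylcholine, rose 1.18-fold (adjusted p = 0.045), Liph, a phosphatidic acid lipase, 1.14-fold (adjusted p = 0.0495), Gdpd2, a glycerophosphodiesterase, 1.35-fold (adjusted p = 0.043), and Abca5, a lipid transporter, fell 1.24-fold (adjusted p = 0.025). Lipe missed the threshold without wild type numbers 1, 3, 4 or 5 or CD151KO numbers 3, 4 or 5 (adjusted p = 0.053 to 0.10). Pctp passed without wild type number 1 or CD9KO numbers 2 or 4 and missed the threshold without each of the other 11 arrays (adjusted p = 0.062 to 0.16). Liph passed without CD9KO number 1 and missed the threshold without each of the other 13 arrays (adjusted p = 0.0501 to 0.17). Gdpd2 passed without CD151KO number 4 or CD9KO numbers 1 or 4 and missed the threshold without each of the other 11 arrays (adjusted p = 0.051 to 0.13). Abca5 missed the threshold without wild type numbers 1, 3 or 4 or CD151KO numbers 3, 4 or 5 (adjusted p = 0.053 to 0.085). Rbp7, a retinol-binding protein of endothelium and fat, read 47.6, 50.1, 51.7 and 48.9 in wild type and 100.4, 196, 217, 74.6 and 94.9 in CD151KO. All knockout arrays lay above the narrow wild type range, with numbers 2 and 3 far above the rest (2.17-fold, log2 1.11, SE 0.24, adjusted p = 0.042). That wild type range lies wholly under the level filter at a signal of 53.4. Rbp7 passed without CD151KO numbers 1 or 4 or CD9KO number 3 and missed the threshold without each of the other 11 arrays (adjusted p = 0.051 to 0.11). Adipocyte markers, whose cells can come with the tissue, are given beside these genes: 0 of 11 passed by limma, 4 were higher and 0 lower at an unadjusted p under 0.05, all 11 differences were positive (54.0% over all genes), and the median was 0.21. Their mean log2 level was 8.46 to 8.68 on wild type and 8.57 to 9.0 on CD151KO arrays, and Adipoq read 244, 321, 328 and 279 in wild type and 346, 583, 518, 373 and 469 in CD151KO (adjusted p = 0.23); their part in the lipid results was not tested.

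Few markers of lung epithelial cells passed. Of 19 alveolar type 2 markers 2 rose and 0 fell (median 0.091), against 0.454% of all genes higher. Cxcl15, lungkine, a chemokine of lung epithelium, read 13116, 15208, 12884 and 12300.2 in wild type and 16037, 16046, 16314, 15704 and 16348 in CD151KO. Wild type number 3 came close to the knockout range without entering it (1.21-fold, log2 0.27, SE 0.046, adjusted p = 0.016; against CD9KO adjusted p = 0.0010). S100g, a calcium-binding protein, read 1145, 1227, 1093 and 997 in wild type and 1398, 1459, 1364, 1363 and 1378 in CD151KO, without overlap (1.25-fold, log2 0.32, SE 0.069, adjusted p = 0.045). Cxcl15 missed the threshold without wild type number 4 (adjusted p = 0.063). S100g passed without wild type number 3 or CD9KO numbers 1 or 4 and missed the threshold without each of the other 11 arrays (adjusted p = 0.059 to 0.16). Sftpc and Sftpb differed by 0.013 and 0.070 (adjusted p = 0.84 and 0.53), and Abca3, the lipid pump of lamellar bodies, by 0.25 (adjusted p = 0.11). Sftpc lay close to the highest signal of any probe set, 29667, and whether such signals still follow the amount of RNA was not tested. For alveolar type 1 markers 0 of 16 passed by limma, and 0 were higher and 4 lower at an unadjusted p under 0.05. Of their differences 14 of 16 were negative (over all genes 54.0% were positive), and the median was -0.053, or -0.084 without CD151KO number 2. Pdpn differed by -0.19 and Hopx by -0.053 (adjusted p = 0.26 and 0.42).

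In the airway, 0 of 14 club and secretory markers and 0 of 15 ciliated cell markers passed by limma, with 3 and 3 higher and 0 and 0 lower at an unadjusted p under 0.05, and medians of 0.12, or 0.081 without wild type number 1 for the club markers, and of 0.071, or 0.028 to 0.036 without wild type number 5 or CD151KO number 5 and 0.11 to 0.12 without wild type number 3 or CD151KO number 2 for the ciliated. Scgb1a1, the club cell secretoglobin, and Foxj1, the ciliated cell factor, differed by 0.0077 and 0.23 (adjusted p = 0.92 and 0.45). Hoatz, a gene of motile cilia, rose 1.23-fold (log2 0.30, SE 0.058, adjusted p = 0.026). For epithelial junctions and polarity 0 of 20 passed by limma, 2 higher and 1 lower at an unadjusted p under 0.05 (median 0.007, or -0.0011 without CD151KO number 4 and 0.025 without CD151KO number 3); Cdh1, E-cadherin, differed by 0.14 (adjusted p = 0.36). Prkci, the atypical kinase of the polarity complex, fell 1.13-fold (log2 -0.17, SE 0.035, adjusted p = 0.033), to 2881 to 3111, with 2845 to 3004 in CD9KO (adjusted p = 0.62 between the knockouts). Hoatz missed the threshold without wild type numbers 1, 3, 4 or 5 or CD151KO numbers 4 or 5 (adjusted p = 0.054 to 0.067). Prkci passed without CD151KO numbers 1 or 2 or CD9KO numbers 1, 2, 4 or 5 and missed the threshold without each of the other 8 arrays (adjusted p = 0.053 to 0.089).

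The next 4 genes, each known from epithelia, rose by small amounts. Esrp2, which directs epithelial splicing, read 359, 347, 377 and 351 in wild type, 424, 421, 389.5, 444 and 443 in CD151KO and 422, 429, 449, 456 and 469 in CD9KO. Both knockouts were above wild type (CD151KO 1.17-fold, log2 0.23, SE 0.046, adjusted p = 0.030; adjusted p = 0.34 between them). Rbm47, an RNA-binding splicing regulator of epithelia, read 355, 363, 356 and 346 in wild type and 435, 422, 414, 419 and 448 in CD151KO (1.20-fold, log2 0.26, SE 0.046, adjusted p = 0.020). St14, the membrane protease matriptase, read 344, 347, 364 and 372 in wild type and 406, 421, 409, 416 and 446 in CD151KO (1.17-fold, log2 0.22, SE 0.043, adjusted p = 0.026). Scnn1b, the beta chain of the epithelial sodium channel that clears airway fluid, read 599, 639, 573 and 579.9 in wild type and 722, 732, 742, 698 and 683 in CD151KO (1.19-fold, log2 0.25, SE 0.047, adjusted p = 0.024). In these 4 genes the wild type and CD151KO arrays did not overlap. Each was the only member of its list to pass except Rbm47, which was on none: 1 of 11 splicing and mesenchymal transition genes, 1 of 10 epithelial serine proteases and inhibitors, and 1 of 12 fluid transport genes rose and 0 fell, against 0.454% of all genes higher. Beside them, the mesenchymal transition genes Zeb1 and Vim differed by -0.18 and -0.11 (adjusted p = 0.28 and 0.33), and the channel's gamma chain Scnn1g by 0.16 (adjusted p = 0.33). Esrp2 passed without CD151KO number 3 or CD9KO numbers 1, 2, 3, 4 or 5 and missed the threshold without each of the other 8 arrays (adjusted p = 0.054 to 0.10). Rbm47 missed the threshold without wild type numbers 4 or 5 or CD151KO number 5 (adjusted p = 0.052 to 0.063). St14 missed the threshold without wild type numbers 1, 3 or 4 or CD151KO numbers 4 or 5 (adjusted p = 0.053 to 0.073). Scnn1b missed the threshold without wild type numbers 4 or 5 or CD151KO number 3 (adjusted p = 0.058 to 0.091).

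Of 16 contractile genes of smooth muscle and myofibroblasts 1 rose and 0 fell (0.454% and 0.323% over all genes), with 6 higher and 0 lower at an unadjusted p under 0.05 (6.72% and 4.42% over all genes) and a median of 0.10. Actg2, the gamma actin of smooth muscle, read 213, 235, 205 and 223 in wild type, 265, 290.3, 297, 290.1 and 315 in CD151KO and 367, 333, 299, 271 and 328 in CD9KO. Both knockouts lay above wild type (CD151KO 1.31-fold, log2 0.39, SE 0.073, adjusted p = 0.025; between them adjusted p = 0.27). Actg2 missed the threshold without wild type numbers 1, 4 or 5 or CD151KO numbers 3, 4 or 5 (adjusted p = 0.051 to 0.098). Acta2 and Myh11, which mark the same cells, did not overlap between groups and differed by 0.22 and 0.25 (adjusted p = 0.19 and 0.10). Of 16 fibroblast and pericyte markers 1 rose, Mfap5 again, and 0 fell (median 0.021, or -0.0066 without CD151KO number 1 and 0.040 without CD151KO number 5); Tcf21, the lipofibroblast factor, differed by -0.32 and Pdgfra by 0.17 (adjusted p = 0.25 and 0.28). Parm1, a mucin-like membrane protein, read 206, 204, 245 and 252 in wild type and 289.7, 311, 367, 349 and 386 in CD151KO, all higher (1.47-fold, log2 0.55, SE 0.085, adjusted p = 0.0070), and passed without each array in turn. Rflnb, which binds filamin and regulates actin, read 489, 563, 566 and 584 in wild type and 746, 890.4, 684, 779 and 727 in CD151KO, also without overlap (1.38-fold, log2 0.46, SE 0.088, adjusted p = 0.026). Rflnb missed the threshold without wild type numbers 1, 3, 4 or 5 or CD151KO numbers 4 or 5 (adjusted p = 0.052 to 0.073).

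For blood endothelial markers 0 of 15 passed by limma, 2 higher and 2 lower at an unadjusted p under 0.05 (median 0.0076, or -0.015 without CD151KO number 1 and 0.073 without wild type number 1). Of 8 lymphatic genes 1 fell and 0 rose, against 0.323% of all genes lower. That gene was Ccbe1, a secreted factor needed to process VEGF-C, at 387, 305, 407 and 359.6 in wild type, 212, 215, 235, 251 and 245 in CD151KO and 398, 328, 318, 406 and 384 in CD9KO. Every CD151KO array lay below every other array (1.53-fold, log2 -0.61, SE 0.089, adjusted p = 0.0053; against CD9KO adjusted p = 0.0011), and Ccbe1 passed without each array in turn. The other lymphatic genes with the smallest p, Reln and Pdpn, differed by 0.30 and -0.19 (adjusted p = 0.20 and 0.26). Tmem204, a membrane protein of endothelium, read 3962, 4458, 4422 and 4259 in wild type and 3843, 3636, 3612, 3959 and 3554 in CD151KO, lower in the knockout without overlap (1.15-fold, log2 -0.20, SE 0.041, adjusted p = 0.032). Of 15 genes of the BMP pathway 1 fell and 0 rose (median -0.051, or -0.10 without CD151KO number 2): Crim1, a membrane protein that binds BMPs, read 1044, 1033, 1084 and 1132 in wild type, 937, 818, 917, 828 and 779.9 in CD151KO and 939, 829.5, 803, 775 and 749 in CD9KO. Both knockouts were lower than wild type (CD151KO 1.25-fold, log2 -0.32, SE 0.066, adjusted p = 0.032; adjusted p = 0.55 between them). Tmem204 passed without wild type number 1, CD151KO numbers 1 or 4 or CD9KO numbers 1, 2 or 4 and missed the threshold without each of the other 8 arrays (adjusted p = 0.051 to 0.12). Crim1 passed without CD151KO numbers 1 or 3 or CD9KO numbers 1, 2, 4 or 5 and missed the threshold without each of the other 8 arrays (adjusted p = 0.053 to 0.12).

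No list of immune cells or of inflammation had a gene that passed. Over all genes tested 0.778% passed, so lists this short can easily hold none. Cxcl15, a chemokine that passed, was counted with the type 2 markers and was not on the chemokine list. Of these lists neutrophil markers had the highest median, 0.33, with 0 of 10 passing by limma and 4 higher and 0 lower at an unadjusted p under 0.05. Their mean log2 level ran from 8.15 to 8.74 on wild type and from 8.37 to 9.15 on CD151KO arrays. S100a8, a chief neutrophil protein, read 2588, 1319, 956 and 1185 in wild type and 5362, 4647, 2272, 1545 and 1612 in CD151KO. The groups overlapped, with both number 1 arrays highest in their groups (log2 0.93, adjusted p = 0.31). Of the others, macrophage (16 tested, 1 higher and 2 lower at an unadjusted p under 0.05, median 0.057, or 0.10 to 0.11 without wild type number 1 or CD151KO number 1), T and NK cell (12 tested, 0 higher and 0 lower at an unadjusted p under 0.05, median 0.023, or -0.036 without CD151KO number 3 and 0.063 without CD151KO number 5), B and plasma cell (10 tested, 0 higher and 0 lower at an unadjusted p under 0.05, median 0.017, or -0.13 without CD151KO number 1 and 0.23 without wild type number 1), MHC class II presentation (7 tested, 0 higher and 0 lower at an unadjusted p under 0.05, median 0.0034, or -0.033 without CD151KO number 3 and 0.042 without CD151KO number 2), chemokine ligands (17 tested, 0 higher and 0 lower at an unadjusted p under 0.05, median -0.028, or -0.067 without CD151KO number 4 and 0.018 without wild type number 1) and interferon-stimulated genes (14, 0, 1 in the same order, median -0.015, or -0.035 without CD151KO number 3 and 0.016 without wild type number 1) also had 0 passing by limma. Il18r1, the receptor of interleukin 18, lay outside these lists and read 1675, 1668, 1683 and 1549 in wild type, 2216, 2041, 1879, 1968 and 1986 in CD151KO and 1553, 1579.5, 1512, 1369.7 and 1388 in CD9KO. All CD151KO arrays were above all others (1.22-fold, log2 0.29, SE 0.053, adjusted p = 0.022; against CD9KO adjusted p = 2.9e-04). Il18r1 missed the threshold without wild type numbers 4 or 5 or CD151KO number 5 (adjusted p = 0.0505 to 0.073). Markers of tissue that can be taken along with the lung had no gene that passed by limma either: cardiac muscle 17 tested, 1 higher and 0 lower at an unadjusted p under 0.05, median 0.14, or 0.056 to 0.071 without CD151KO numbers 5 or 3; mesothelial 9, 1, 0 and 0.17, or 0.090 without wild type number 1 and 0.28 without wild type number 4. Of 21 immediate early genes, which answer quickly to stimulation, 0 passed by limma, with 0 higher and 2 lower at an unadjusted p under 0.05 and a median of -0.068, or -0.16 to -0.12 without wild type number 5 or CD151KO number 1 and -0.042 to 0.013 without wild type number 1 or CD151KO number 5.

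**Figure D5:**
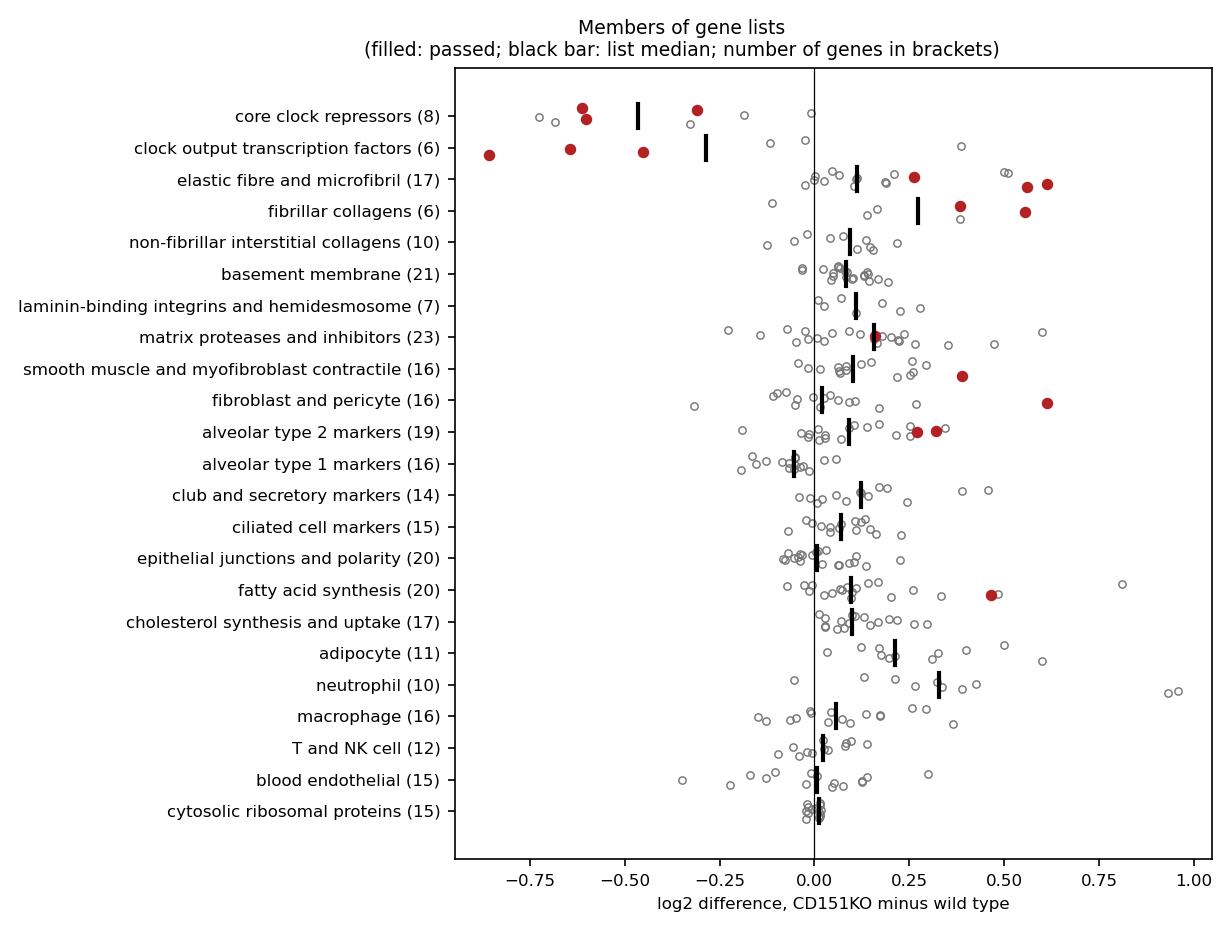
Each row is a gene list, each circle a member at its log2 difference, CD151KO minus wild type; filled circles passed and the black bar is the list median, with the number of genes tested in brackets and Cd151 left out. The clock repressors and output factors lie left of 0, with medians of -0.47 and -0.28, and fibrillar collagens (0.27), adipocyte (0.21) and neutrophil (0.33) markers right of it, both marker lists with no filled circle.

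Other large changes were in genes of varied function. Nrcam, a neuronal cell adhesion molecule, read 89.2, 109.8, 75.9 and 86.1 in wild type and 165, 154, 137, 137 and 132 in CD151KO. All knockout arrays were higher (1.52-fold, log2 0.61, SE 0.10, adjusted p = 0.016), and Nrcam was 1 of 13 neural adhesion genes, of which no other passed. Leo1, a subunit of the PAF1 complex that travels with RNA polymerase II, read 58.2, 80.4, 74.1 and 69.9 in wild type and 117, 114, 98.3, 112 and 108 in CD151KO, without overlap (1.46-fold, log2 0.54, SE 0.082, adjusted p = 0.0062). St6galnac3, a sialyltransferase, read 255, 248, 213 and 184 in wild type, 365, 270.4, 396, 331 and 312 in CD151KO and 208, 169.7, 185, 199 and 163 in CD9KO, with CD151KO above both (1.45-fold, log2 0.54, SE 0.11, adjusted p = 0.030; against CD9KO adjusted p = 8.5e-04). Zdhhc3, an enzyme that palmitoylates membrane proteins, read 943, 1075, 963 and 976 in wild type, 1366, 1263, 1225, 1292 and 1258 in CD151KO and 947, 849, 965, 925 and 857 in CD9KO. It was higher in CD151KO than on any other array (1.29-fold, log2 0.37, SE 0.050, adjusted p = 0.0048; against CD9KO adjusted p = 6.9e-05). Ahcyl2, related to the enzyme of methylation turnover, read 1004, 1142, 1145 and 1128 in wild type and 1337, 1497, 1366, 1527 and 1573 in CD151KO, all higher (1.32-fold, log2 0.40, SE 0.056, adjusted p = 0.0048). Leo1, Zdhhc3 and Ahcyl2 passed without each array in turn. For Zdhhc3, however, with the mean of all its probe sets the log2 difference was 0.17 (adjusted p = 0.11), with 2 of its 4 probe sets overlapping at 0.054 and -0.081, and for Ahcyl2 with the mean of all the log2 difference was 0.15 (adjusted p = 0.065). Nrcam missed the threshold without wild type number 4 (adjusted p = 0.062). St6galnac3 missed the threshold without wild type numbers 4 or 5 or CD151KO numbers 1, 3, 4 or 5 (adjusted p = 0.058 to 0.11).

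Metabolic genes that fell included Mthfd1l and Coq10b. Mthfd1l, the mitochondrial enzyme that makes formate from folate, read 274, 261, 266 and 287 in wild type, 143, 177, 194, 203 and 185 in CD151KO and 305, 264, 264, 298 and 325 in CD9KO. All CD151KO arrays lay below all others (1.47-fold, log2 -0.56, SE 0.084, adjusted p = 0.0062; against CD9KO adjusted p = 5.5e-04). It was the only one of 14 folate and one-carbon enzymes to pass (2 higher and 2 lower at an unadjusted p under 0.05, median 0.017, or -0.045 without wild type number 5 and 0.037 without wild type number 3). Coq10b, which binds coenzyme Q in mitochondria, read 1817, 1766, 1796 and 1736 in wild type, 1261, 1483, 1399, 1383 and 1471 in CD151KO and 1659, 1509.6, 1495, 1542 and 1399 in CD9KO. Every wild type array lay above every knockout array of either kind (1.27-fold, log2 -0.34, SE 0.051, adjusted p = 0.0058; between knockouts adjusted p = 0.12). Both passed without each array in turn. Pdxk, which activates vitamin B6, fell 1.19-fold (adjusted p = 0.045), the glycolytic Hk1 and Pfkl rose 1.12-fold and 1.19-fold (adjusted p = 0.042 and 0.047), and Slc19a3, the thiamine transporter, rose 1.25-fold (adjusted p = 0.025). Pdxk passed without wild type number 3 and missed the threshold without each of the other 13 arrays (adjusted p = 0.057 to 0.14). Hk1 passed without CD9KO numbers 1 or 2 and missed the threshold without each of the other 12 arrays (adjusted p = 0.0502 to 0.11). Pfkl passed without wild type number 5 and missed the threshold without each of the other 13 arrays (adjusted p = 0.0501 to 0.14). Slc19a3 missed the threshold without wild type numbers 1, 4 or 5 or CD151KO number 5 (adjusted p = 0.0510 to 0.093).

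The remaining large falls were in single genes. Eif5a2, a form of the elongation factor that carries hypusine, read 342, 375, 407 and 389 in wild type and 264, 316, 249, 294 and 289 in CD151KO (1.32-fold, log2 -0.40, SE 0.079, adjusted p = 0.029). Lonrf1, a ring finger protein, read 659, 539.6, 632 and 709 in wild type and 454, 488, 454, 492 and 501 in CD151KO (1.31-fold, log2 -0.39, SE 0.067, adjusted p = 0.016). Fkbp11, a prolyl isomerase of the secretory pathway, read 229.6, 209, 236 and 247 in wild type and 153, 183, 200.3, 183 and 155 in CD151KO (1.29-fold, log2 -0.37, SE 0.074, adjusted p = 0.030). In all 3, as in the transcript 2410004I01Rik (223, 230.4, 213 and 200.2 against 170.4, 181, 129.8, 166 and 162; 1.31-fold, log2 -0.39, SE 0.074, adjusted p = 0.025), every knockout array was below every wild type array. Sbds, which readies the large ribosomal subunit, fell 1.14-fold (adjusted p = 0.016), to 1348 to 1441, with 1324 to 1458 in CD9KO (adjusted p = 0.91 between the knockouts). Eif5a2 missed the threshold without wild type numbers 3, 4 or 5 or CD151KO numbers 1, 3, 4 or 5 (adjusted p = 0.051 to 0.11). Lonrf1 missed the threshold without wild type number 4 (adjusted p = 0.061). Fkbp11 missed the threshold without wild type numbers 1, 4 or 5 or CD151KO numbers 1, 4 or 5 (adjusted p = 0.052 to 0.11). 2410004I01Rik missed the threshold without wild type numbers 1, 3 or 4 or CD151KO number 5 (adjusted p = 0.053 to 0.073). Sbds missed the threshold without wild type number 4 (adjusted p = 0.063). Among 15 cytosolic ribosomal proteins 0 passed by limma, 0 and 0 at an unadjusted p under 0.05 higher and lower, with a median of 0.012, or -0.0055 without CD151KO number 1 and 0.020 without wild type number 1, and among 23 genes of the unfolded protein response 0 passed, 6 and 1, with a median of 0.075, or 0.031 to 0.050 without wild type number 1 or CD151KO number 5.

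The other genes that rose did so by 1.12-fold to 1.32-fold and are given with their log2 differences: Slc43a2, an amino acid transporter (0.40), Pdzrn3, a ubiquitin ligase of Wnt signalling (0.40), Fxyd6, a modulator of the sodium pump (0.39), Afap1l2, an actin-linked adaptor of Src (0.36), Ckb, brain creatine kinase (0.35), Scara5, a ferritin receptor of stromal cells (0.34), Klhl13, a substrate adaptor of a ubiquitin ligase (0.34), Rgl3, an effector of Ras (0.32) and Nsun7, of an RNA methyltransferase family (0.28). Smaller rises were those of Fndc4, a secreted fibronectin type III protein (0.28), 0610009B22Rik (0.27), Gstt3, a glutathione transferase (0.27), Dtx4, a regulator of Notch (0.27), Bik, a BH3-only protein that promotes apoptosis (0.25), Eif4g3, a translation scaffold (0.21), Atat1, the tubulin acetyltransferase (0.20), Atf6b, a sensor of endoplasmic reticulum stress (0.19), Man1c1, a Golgi mannosidase (0.19), Ascc2, a subunit of a DNA and ribosome repair complex (0.18) and Znhit1, a subunit of a chromatin remodeller (0.16). The other genes that fell were Ankrd12, an ankyrin repeat corepressor (-0.36), Pag1, an adaptor that holds CSK at the membrane (-0.35), Syt14, a synaptotagmin (-0.35), Trim24, a reader of histone marks (-0.31), Fam76a (-0.31), H3f3a, a histone H3 variant gene (-0.30), Arhgef26 (-0.30), Rnaseh2b, a subunit of ribonuclease H2 (-0.29) and Aff3, a transcription elongation factor (-0.29). Smaller falls were those of Chn1, a regulator of Rac (-0.28), Rbms3, an RNA-binding protein (-0.22), Ctdspl, a small phosphatase (-0.21), Mcm5, a subunit of the replication helicase (-0.21), Tmed8, a membrane traffic protein (-0.19), Phlpp2, a phosphatase of AKT (-0.17), Akap2, an anchor of protein kinase A (-0.17) and Mettl7a1, a methyltransferase-like protein (-0.16). The wild type mean of Fndc4, 47.5, lay under the level filter, and its other probe set overlapped and differed by -0.059. In none of these genes did the groups overlap on the probe set used. None passed without each of the 14 arrays in turn: all but Aff3 and 0610009B22Rik missed the threshold without wild type number 4, and over whichever array was left out the adjusted p of those that missed ran from 0.0501 to 0.16.

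Of the 101 genes that passed against wild type, 68 also passed when CD151KO was tested against CD9KO, 38 higher and 30 lower, each in the same direction; 10.1% of all genes passed that test. Both comparisons share the CD151KO arrays, so the count is no independent check. Among the clock genes that passed, Clock missed the threshold between the knockouts (adjusted p = 0.088), while Arntl, Per3, Nr1d2, Ciart, Dbp, Tef, Hlf and Usp2 passed. Among the matrix genes, Mfap5, Ltbp3, Col3a1, Col5a2, Spon2, Htra3 and Adam17 passed and Eln did not. Both knockouts were compared with the same wild type arrays, so their differences from wild type, which passed for 5.51% of all genes in CD9KO, are set side by side only. For Eln the log2 differences were 0.56 in CD151KO and 0.66 in CD9KO, for Actg2 0.39 and 0.51, for Lipe 0.45 and 0.54, for Crim1 -0.32 and -0.39, and for Mfap5 0.61 and -0.33, the last in opposite directions.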

How the data were processed

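Total RNA from whole lung (500 ng per array) was labelled with biotin and hybridised to Affymetrix Mouse 430 2.0 arrays, per the labels' protocols. The authors deposited linear normalized intensities, and the submitters' processing notes name Affymetrix Expression Console and MAS5 without a version. The background correction and scaling behind each intensity are not given in the sources used here. Both could have compressed or stretched weak signals. Of 45101 probe sets, 34958 had 1 gene symbol in the platform annotation, 932 had several and 9211 none; only the first were named, and 34741 matched a RefSeq gene by Entrez number.

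Here intensities were set to log2(signal + 16), the probe set with the highest mean stood for each of 18193 genes, and 12985 genes with a mean above the 40th percentile of all probe sets (log2 6.12) entered the test. limma 3.58.1 in R 4.3.3 was fitted to all 14 arrays in 3 groups (lmFit, then eBayes with a trend, 11 residual degrees of freedom, median residual SD 0.0882), and p-values were adjusted by Benjamini-Hochberg over all genes tested. Precision is limited by how few arrays each group has. The script was tested on simulated data. Tables and plots were made with Python 3.11.15, pandas 2.3.3, numpy 2.4.6 and matplotlib 3.10.9.

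The gene lists and the genes described were chosen with earlier results of these data known. Genes that passed may be named; values on every array are given for the 15 largest rises and 15 largest falls without overlap, and lists are illustrated by up to 5 members with the smallest p and by the first 2 genes of each marker list, with further genes of interest chosen after their values were seen. Alternatives were other pseudocounts, quantile normalization and median centring, other filters, the mean of probe sets, every probe set, a fit without CD9KO, array weights, no trend, a block for the replicate number, a fold threshold, and each array left out in turn.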

Additional observations from a re-analysis of the deposited data

Results flagged for a closer look

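Arrays that stood apart within their group were sought among the genes that passed by Dixon's criterion, which chance meets in about 1 of 20 groups; 10 of 202 groups met it. In wild type, Il18r1 read 1549 on number 5 against 1668 to 1683 on the others, and Lipe 112 on number 5 against 125 to 127. Wild type number 3 gave 1847 for Fasn against 1562 to 1600 and 559.7 for Ascc2 against 538.6 to 541.7. Wild type number 4 gave 529 for Pafah2 against 584 to 591. On wild type number 1, which also stood apart over all genes, Ahcyl2 read 1004 against 1128 to 1145, Rnaseh2b 479.8 against 392 to 406, and Akap2 5584 against 5218 to 5240.2. In CD151KO, number 3 gave 57.4 for Fndc4 against 61.3 to 62.9, and 1027 for Cd151 against 1061 to 1072, a gap that is small beside the distance to wild type.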

How the results depend on the processing

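The count of 101 genes (59 higher, 42 lower) stayed within 1.5 times under other pseudocounts, quantile normalization, median centring, other level filters, the mean of probe sets, no trend and every probe set (144 probe sets). Within that range the genes still changed: of the 101, 59 were shared with the mean of probe sets (40 calls ended), 78 with no level filter (23 ended), 88 with no trend, 89 with a filter at the 60th percentile, 90 with median centring and 92 with quantile normalization. The count was 39 (25 higher, 14 lower), 37 of them shared, with only CD151KO and wild type in the fit, 335 (213 and 122) with array weights, 14 with a fold of at least 1.5, and 45 (21 and 24) without both number 1 arrays, a choice made after seeing the data. The cause was not tested, though fits on fewer arrays have fewer degrees of freedom by construction. Leaving out 1 array gave 24 to 98 genes, 12 to 61 higher and 12 to 47 lower, with wild type number 4 giving the lowest. Of the 101 genes, 16 passed in every fit that tested them. Sec23ip reversed to 0.17 when its probe sets were averaged, since they disagree. With the replicate number as a block 109 genes passed (62 higher, 47 lower), 71 of them among the 101, so 30 calls ended. Deviations of same-numbered arrays correlated by 0.59, -0.13, 0.45 and 0.26 for numbers 1, 3, 4 and 5, so the number is not taken as a pairing. Even so, scores on the first principal component rose with the number in both wild type and CD151KO. Of the 63 list medians, 26 changed sign under some alternative, none of them larger than 0.072 in size. Standard errors did not simply rise as signals fell. Among neighbours of Cd151 they were 0.050 for Cend1 and 0.16 for Muc5b, with wild type means of 53.6 and 556.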
